A study of Mus musculus with 12 samples.

Results

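Aldo-keto reductases are enzymes that use NADPH to reduce aldehydes and ketones of sugars, lipids, steroids and prostaglandins. The mouse family was followed here in cumulus cells, the granulosa-derived cells around the oocyte, by means of 10 named genes: Akr1b3, Akr1b7, Akr1b8, Akr1b10, Akr1c6, Akr1c12, Akr1c13, Akr1c14, Akr1c18 and Akr7a5. They were looked up by symbol in the annotation of the array, with 1 probe set per symbol, the one with the highest mean over the 12 arrays. Of the 10 genes, 8 were found among 19938 genes with a single symbol, each with 1 probe set. These were 2 of 4 Akr1b genes, all 5 Akr1c genes and Akr7a5. Akr1b3, the aldose reductase of the polyol pathway, and Akr1b7, which reduces aldehydes released when cholesterol is cleaved, had no probe set under their symbols and are not analysed here. The genes and the contrast between Akr1b and Akr1c genes were chosen by their log2 values in the 3 culture groups, which were known, so that their own differences are described without a test.

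The cells came from cumulus-oocyte complexes of female 129SV mice aged 21 to 26 days, taken 44 h after 5 IU of equine chorionic gonadotropin, and every group shared this priming. Intact complexes were cultured for 8 h with FSH at 50 mIU/ml plus EGF at 10 ng/ml in 293H control medium (FSH/EGF), with 20 ng/ml GDF9, a growth factor secreted by oocytes, or with 293H control medium alone at 0.125% by volume (control). For the GDF9 arrays no 293H medium is named in the labels. Cultures of every group also held cilostamide at 1 uM. Each group had 4 arrays, and each array held pooled RNA of 2 of 8 biological replicates, so that spreads and p-values refer to such pools. Oocytes were present during culture and removed before extraction, and bulk RNA does not tell fewer cells of a type from less RNA per cell.

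All values are log2 expression as deposited by the authors, and 1 unit is a 2-fold difference. Correlations between arrays of a group ran from 0.971 to 0.995, and control array 1 had the lowest array weight, 0.269 against 0.485 to 2.04 on the other arrays. Cumulus and granulosa markers, 9 measured, averaged 7.30 to 7.50 on FSH/EGF arrays, 8.80 to 8.95 on GDF9 arrays and 8.84 to 9.03 on control arrays. Of these markers 8 fell and 0 rose with FSH/EGF against the control (limma adjusted p under 0.05). The mean of 18 oocyte markers was 4.75 to 5.10 on FSH/EGF arrays and 4.73 to 4.90 on GDF9 arrays, and 5.94 on control array 4 against at most 5.03 on the other controls. Of these only Npm2 (-0.54 ± 0.13) fell with FSH/EGF against the control, and 0 rose. The mean of 9 surface epithelium markers was 6.19 to 6.31 on FSH/EGF arrays, 5.58 to 5.78 on GDF9 arrays and 5.56 to 5.95 on control arrays. Against the control Krt8 (3.02 ± 0.20), Krt18 (2.72 ± 0.14) and Epcam (0.36 ± 0.09) rose, Msln (-0.27 ± 0.09) and Cdh1 (-0.27 ± 0.08) fell, and the median difference was -0.18 with 3 of 9 above 0. Means of 10 theca and stroma markers were 5.36 to 5.42 on FSH/EGF arrays, 5.67 to 5.87 on GDF9 arrays and 5.75 to 5.97 on control arrays. Against the control Acta2 (-2.34 ± 0.21) fell most, beside Pdgfra (-0.4 ± 0.11) and Col1a1 (-0.31 ± 0.1). The other 7 were not past the threshold, and the median difference was -0.27 with 0 of 10 above 0. Means of 10 endothelial markers were 5.37 to 5.44 on FSH/EGF arrays, 5.03 to 5.24 on GDF9 arrays and 5.06 to 5.22 on control arrays. Only Cdh5 (3.18 ± 0.09) and Tek (0.29 ± 0.07) rose against the control, and Egfl7 (-0.31 ± 0.09) fell. The median difference was -0.03 with 2 of 10 above 0. Means of 9 leukocyte markers were 4.88 to 4.96 on FSH/EGF arrays, 4.86 to 5.11 on GDF9 arrays and 4.94 to 5.11 on control arrays. Only Cd68 (0.50 ± 0.09) rose against the control and 0 fell. The median difference was -0.18 with 1 of 9 above 0. The part of these markers in the values of the aldo-keto reductases was not tested.

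The Akr1b genes lie side by side on mouse chromosome 6, in the order Akr1b3, Akr1b8, Akr1b10 and Akr1b7, and the Akr1c genes form a block on chromosome 13. Promoter windows of the genes with the largest differences are shown, each from 250 bases before to 50 bases after the start of the gene (RefSeq, GRCm38.p6), for Akr1b8 and Akr1b10, which were higher with FSH/EGF, and Akr1c14, which was lower. Capitals mark a match to any of 5 motifs searched on both strands.
Akr1b8 (chr6:34353896-34354195, plus strand): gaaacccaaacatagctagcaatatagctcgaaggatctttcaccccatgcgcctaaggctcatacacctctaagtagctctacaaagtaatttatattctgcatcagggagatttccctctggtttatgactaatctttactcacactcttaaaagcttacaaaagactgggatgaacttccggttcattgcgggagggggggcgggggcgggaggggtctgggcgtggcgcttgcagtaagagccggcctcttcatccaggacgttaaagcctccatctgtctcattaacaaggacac
Akr1b10 (chr6:34383997-34384296, plus strand): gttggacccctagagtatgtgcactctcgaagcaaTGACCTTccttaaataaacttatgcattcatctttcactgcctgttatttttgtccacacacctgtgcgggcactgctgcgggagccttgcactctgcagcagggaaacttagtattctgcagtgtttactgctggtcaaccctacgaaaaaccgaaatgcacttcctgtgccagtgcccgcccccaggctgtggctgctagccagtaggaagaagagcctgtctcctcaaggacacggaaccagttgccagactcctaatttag
Akr1c14 (chr13:4059341-4059640, plus strand): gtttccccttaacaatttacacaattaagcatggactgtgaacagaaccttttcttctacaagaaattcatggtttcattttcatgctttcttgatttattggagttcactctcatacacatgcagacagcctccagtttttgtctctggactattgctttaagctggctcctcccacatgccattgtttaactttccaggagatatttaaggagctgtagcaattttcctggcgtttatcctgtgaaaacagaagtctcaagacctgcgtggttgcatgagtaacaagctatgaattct
The motifs were the cAMP response element TGACGTCA, its shorter form TGACG, the antioxidant response element TGACNNNGC, the AP-1 site TGANTCA and the NR5A site AAGGTCA, bound by the nuclear receptors SF-1 and LRH-1. The first 3 can overlap, since they share the letters TGAC. The only match in these 3 windows was an NR5A site on the minus strand of Akr1b10, 215 bases before the start. The window of Akr1b7 also held one, 248 bases before the start, and the windows of the other members held no match to any of the 5. Among 32851 promoter windows of the same length, 4.72% held the NR5A site, 1.79% TGACGTCA, 20.8% TGACG, 12.4% the antioxidant element and 7.81% the AP-1 site. A match here is a string of letters, and binding was not measured.

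A second pair of windows is shown because Akr1c12 and Akr1c13 are close copies, which bears on how far their values are separate. Capitals mark bases that differ between the aligned windows or lie opposite a gap.
Akr1c12 (chr13:4279350-4279649, minus strand): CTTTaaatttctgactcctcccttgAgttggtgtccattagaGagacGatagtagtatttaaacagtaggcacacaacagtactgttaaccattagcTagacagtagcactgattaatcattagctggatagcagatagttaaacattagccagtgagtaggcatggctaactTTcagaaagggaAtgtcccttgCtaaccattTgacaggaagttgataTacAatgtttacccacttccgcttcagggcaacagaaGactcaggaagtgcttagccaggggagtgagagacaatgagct
Akr1c13 (chr13:4190937-4191236, plus strand): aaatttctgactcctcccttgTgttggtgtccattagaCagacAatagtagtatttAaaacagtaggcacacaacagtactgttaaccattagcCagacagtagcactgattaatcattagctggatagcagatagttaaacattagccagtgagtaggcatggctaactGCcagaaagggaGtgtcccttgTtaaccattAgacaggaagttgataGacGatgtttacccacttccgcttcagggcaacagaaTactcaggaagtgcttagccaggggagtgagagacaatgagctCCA
Of 296 aligned bases 284 were identical, or 95.9%. Whether the probe set of either gene also reads the RNA of the other was not tested.

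With FSH/EGF, both measured Akr1b genes were higher than in control medium without overlap of arrays. Of the 5 Akr1c genes 3 were lower without overlap, while the other 2 overlapped. Without overlap, 22.4% of all 19938 genes were higher and 19.6% lower. Nothing is read from these counts, since the genes were picked with their values known. The largest difference upward was that of Akr1b8 and the largest downward that of Akr1c14. Means of GDF9 arrays lay within 0.15 of the control means (log2) for each of the 8 genes.

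Akr1b8 encodes a reductase first described as a protein induced by fibroblast growth factor. It stood at 9.85, 10.14, 9.92 and 10.45 on the FSH/EGF arrays, at 5.24, 4.94, 4.88 and 4.82 on the GDF9 arrays, and at 4.85, 4.83, 4.85 and 4.79 on the control arrays. The FSH/EGF arrays lay above all others by at least 4.61, and GDF9 and control arrays overlapped. The mean was 10.09 ± 0.27 with FSH/EGF, 4.97 ± 0.18 with GDF9 and 4.83 ± 0.03 in control medium (SD, n = 4 each). The difference between FSH/EGF and control was 5.26 ± 0.13 (log2, SE), and between FSH/EGF and GDF9 5.12 ± 0.13. The control values lay below the medians of the control arrays, 5.47 to 5.53, and no background measure was used, so that no fold is given.

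Akr1b10, whose older symbol is Akr1b16, lies next to Akr1b8. Its values were 6.66, 6.73, 6.64 and 6.86 with FSH/EGF, 5.74, 5.07, 5.28 and 5.28 with GDF9, and 4.90, 5.37, 5.34 and 5.25 in control medium. All 4 FSH/EGF arrays were above the 8 others. The difference was 1.5 ± 0.14 between FSH/EGF and control, and 1.40 without control array 1, the lowest of its group. Against GDF9 it was 1.38 ± 0.14. The control mean, 5.22, lay below the medians of the control arrays, 5.47 to 5.53.

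Akr1c14 encodes a 3-alpha-hydroxysteroid dehydrogenase, which reduces 5-alpha-dihydrosteroids such as those of the progesterone and androgen pathways. It stood at 6.13, 5.73, 5.81 and 5.6 on the FSH/EGF arrays, at 10.64, 10.26, 10.58 and 10.82 on the GDF9 arrays and at 10.57, 10.84, 10.72 and 10.74 on the control arrays. FSH/EGF arrays lay below all others by at least 4.12, and the other groups overlapped. The mean was 5.82 ± 0.23 with FSH/EGF, 10.57 ± 0.23 with GDF9 and 10.72 ± 0.11 in control medium (SD, n = 4 each). The difference was -4.90 ± 0.13 between FSH/EGF and control and -4.76 ± 0.13 between FSH/EGF and GDF9 (27.1-fold lower). The FSH/EGF mean lay little above the medians of the FSH/EGF arrays, 5.41 to 5.44. No background measure was used, so that this fold is uncertain. Granulosa markers fell on the same arrays, as given above.

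**Figure D1:**
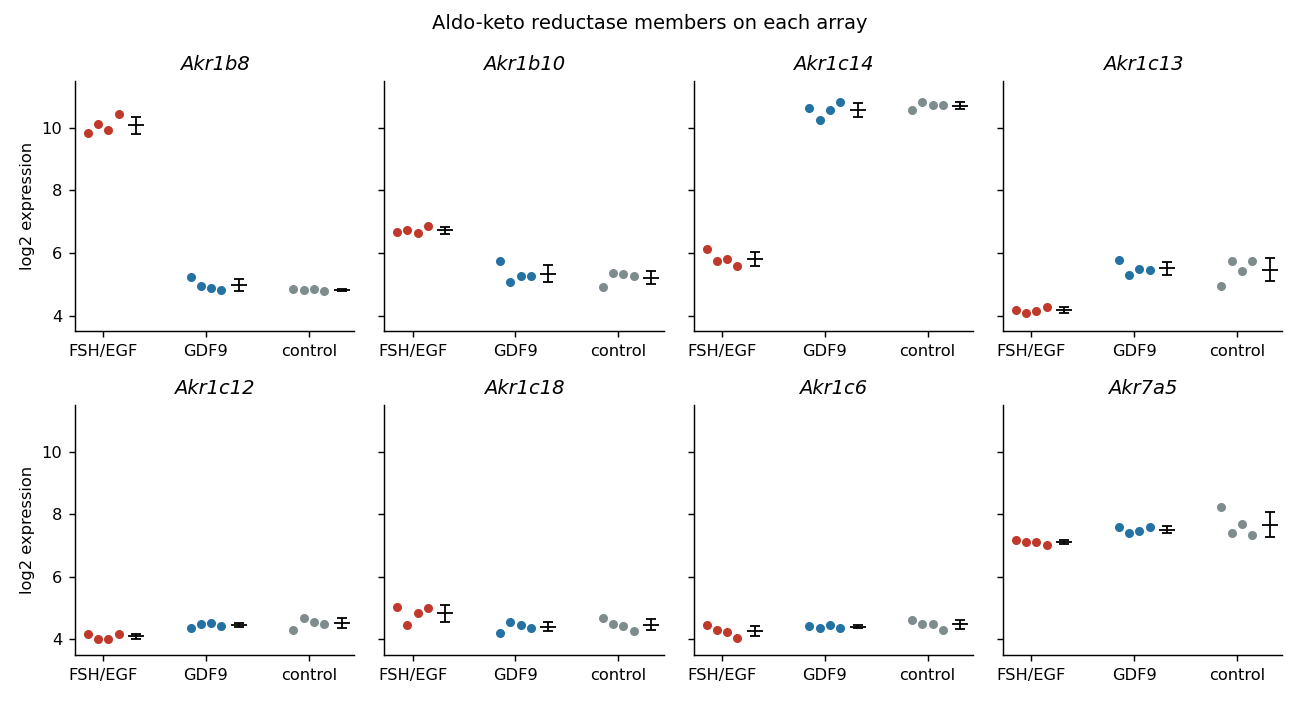
Log2 expression (vertical axis) of the 8 measured aldo-keto reductase genes on each array, with points for the 4 arrays of FSH/EGF, GDF9 and control, and the mean with its SD to the right of the points. Akr1b8 is high on the FSH/EGF arrays alone (9.85 to 10.45) and Akr1c14 is low on them (5.6 to 6.13), while the other 6 genes differ less.

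Akr1c13 was also lower with FSH/EGF. Its values were 4.19, 4.08, 4.16 and 4.29 with FSH/EGF, 5.79, 5.30, 5.50 and 5.46 with GDF9, and 4.95, 5.76, 5.43 and 5.75 in control medium. No FSH/EGF array reached the lowest of the others, with a gap of 0.66 to the control arrays. The difference was -1.29 ± 0.16 against the control and -1.47 without control array 1. Against GDF9 it was -1.33 ± 0.16.

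Akr1c12 had values of 4.16, 4.0, 4.02 and 4.18 with FSH/EGF, 4.37, 4.50, 4.51 and 4.42 with GDF9, and 4.31, 4.69, 4.56 and 4.49 in control medium. Its FSH/EGF arrays were below the others without overlap, but by 0.13 at the closest to the control arrays. The difference was -0.42 ± 0.09 against the control and -0.36 ± 0.09 against GDF9. Only 20.8% of all rows had a lower mean over the 12 arrays.

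Akr1c18 encodes 20-alpha-hydroxysteroid dehydrogenase, which converts progesterone to a form with little activity and is known in the mouse from the regressing corpus luteum. It was at 5.04, 4.45, 4.83 and 4.99 with FSH/EGF, at 4.21, 4.55, 4.47 and 4.37 with GDF9, and at 4.67, 4.50, 4.41 and 4.25 in control medium. FSH/EGF array 2 lay within the range of the other groups, so that the groups overlapped. It was the only Akr1c gene with a positive difference against the control, 0.37 ± 0.13, and 0.42 ± 0.13 against GDF9. Only 26.2% of rows had a lower mean.

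Akr1c6 encodes a 17-beta-hydroxysteroid dehydrogenase of the type that makes testosterone from androstenedione. Its values were 4.45, 4.31, 4.24 and 4.04 with FSH/EGF, 4.43, 4.36, 4.45 and 4.37 with GDF9, and 4.62, 4.50, 4.48 and 4.30 in control medium. The groups overlapped, and the differences were -0.22 ± 0.09 against the control and -0.14 ± 0.09 against GDF9. Its mean, too, was low, with 21.5% of rows below it.

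Akr7a5 encodes a reductase of aflatoxin aldehyde and succinic semialdehyde and lies on chromosome 4, away from both blocks. It stood at 7.17, 7.11, 7.11 and 7.03 with FSH/EGF, at 7.58, 7.39, 7.46 and 7.60 with GDF9, and at 8.22, 7.39, 7.70 and 7.34 in control medium. The FSH/EGF arrays were below the others by 0.17 at the closest. The difference was -0.56 ± 0.16 against the control, and -0.37 without control array 1, which was the highest of all 12. Against GDF9 it was -0.40 ± 0.16.

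**Figure D2:**
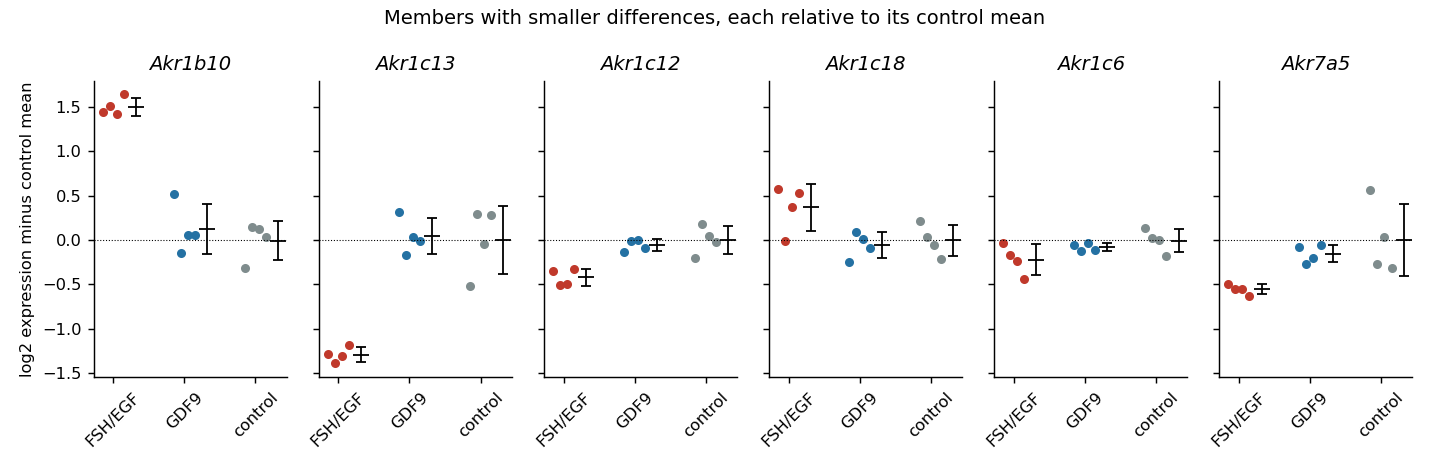
Log2 expression of 6 aldo-keto reductase genes minus the mean of the gene's control arrays (vertical axis), with points for arrays of FSH/EGF, GDF9 and control, and the mean with its SD beside them. Akr1b10 is above 0 and Akr1c13 below 0 on all FSH/EGF arrays, FSH/EGF array 2 of Akr1c18 sits at the control level, and control array 1 of Akr7a5 stands above its group.

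Counted together, 2 of the 8 genes were higher with FSH/EGF than in control medium without overlap of arrays, 4 were lower without overlap and 2 overlapped. Over all 19938 genes, 22.4% were higher and 19.6% lower without overlap, or 41.9% in all. A difference of at least 1 in either direction was seen for Akr1b8, Akr1b10, Akr1c13 and Akr1c14, and for 7.38% of all genes. Against GDF9 the same split was seen, 2 higher and 4 lower without overlap, where 20.1% and 13.5% of all genes were higher and lower, 33.7% in all. The same 4 genes differed by at least 1 there, as did 6.58% of all genes. Both comparisons share the FSH/EGF arrays. The median difference against the control was 3.38 for the 2 Akr1b genes and -0.42 for the 5 Akr1c genes, beside -0.072 over all genes. Against GDF9 the medians were 3.25 for Akr1b and -0.36 for Akr1c, beside -0.031 over all genes. Since the genes were picked with these values known, nothing is read from the counts.

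GDF9 against control asked whether GDF9 added to the medium shifts the same enzymes. Oocytes, which secrete this factor, were present in both groups, and how much they supplied was not measured. The comparison therefore covers added GDF9, beside whatever the oocytes gave. Arrays of both groups overlapped for all 8 genes, whereas 2.32% of all genes did not overlap, 1.09% higher and 1.23% lower. Differences ran from -0.15 for Akr7a5 to 0.14 for Akr1b8, with SEs of 0.09 to 0.16. Akr1b8 was 0.14 ± 0.13, Akr1b10 0.13 ± 0.14, Akr1c14 -0.14 ± 0.13 and Akr1c13 0.04 ± 0.16. GDF9 array 1 was the highest of its group for Akr1b8, Akr1b10 and Akr1c13, and control array 1 the lowest of its group for Akr1b10, Akr1c12, Akr1c13 and Akr1c14. Across all rows 0 of 35399 were past limma's threshold of 0.05 on the adjusted p, and 0 without moderated variances. At an unadjusted p under 0.05 there were 1590, or 4.49% of the rows.

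Beyond the named genes, the family had 10 further genes with a probe set, and these were tested with limma. Against the control, 1 rose and 3 fell with FSH/EGF, or 4 of 10, where 36.8% of all genes were called. Kcnab3, a beta subunit of potassium channels that has the fold of the family, was at 5.57, 5.68, 5.59 and 5.67 with FSH/EGF, above 5.34, 5.16, 5.39 and 5.26 in control medium. It rose by 0.34 ± 0.07 (limma adjusted p = 0.00232). Its relative Kcnab1 was at 4.89 to 4.92 on FSH/EGF arrays and at 5.05 to 5.89 on control arrays, and fell by 0.61 ± 0.17 (limma adjusted p = 0.0166), a call lost after renewed quantile normalization (-0.53, adjusted p = 0.0556). Akr1cl stood at 10.35, 10.06, 10.17 and 9.82 with FSH/EGF and at 10.47, 10.39, 10.87 and 10.37 in control medium. It fell by 0.42 ± 0.14 (limma adjusted p = 0.0394), a call that did not hold without control array 1 (p 0.0556 after adjustment), control array 3 (0.112), GDF9 array 4 (0.0512), or FSH/EGF array 2 (0.0819), 3 (0.0635) or 4 (0.111), with equal array medians (0.108), with only the groups compared (0.0504), or without control arrays 1 and 4 (0.0507). Akr1c20 fell by 0.20 ± 0.06 (limma adjusted p = 0.0267), at 4.34 to 4.44 with FSH/EGF and 4.52 to 4.66 in control medium. That call was lost without control array 2 (adjusted p = 0.0753) or 4 (0.0585), without FSH/EGF array 2 (0.0723) or 4 (0.0666), without control arrays 1 and 4 (0.084), after renewed quantile normalization (0.174), with equal array medians (0.191) and with a replicate block (0.0578).

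The other 6 were not past the threshold against the control. Akr1a1, the aldehyde reductase used in vitamin C synthesis in mice, was at 0.23 ± 0.09 (95% interval 0.04 to 0.42; limma adjusted p = 0.0618). Akr1d1, the 5-beta-reductase of steroids, was at -0.22 ± 0.08 (limma adjusted p = 0.0591), Akr1c19 at -0.17 ± 0.06, Akr1c21 at -0.17 ± 0.08 and Kcnab2 at -0.18 ± 0.09. Akr1e1 was at -0.01 ± 0.15 (95% interval -0.34 to 0.32), with FSH/EGF array 4 at 4.95 and the other FSH/EGF arrays at 5.39 to 5.41. Against GDF9, Kcnab3 rose by 0.39 ± 0.07 (limma adjusted p = 0.0011), and Akr1cl and Akr1c21 fell, by 0.50 ± 0.14 and 0.23 ± 0.08 (adjusted p = 0.0211 and 0.0485). The Akr1c21 call was lost in 13 settings, among them 10 of the 12 with a single array left out (adjusted p up to 0.135), equal array medians (0.0568), only the groups compared (0.069) and a replicate block (0.0743). The Akr1cl call against GDF9 was lost in 5 of the 12 with a single array left out (adjusted p up to 0.0669). These were 30.0% of the 10, where 29.1% of all genes were called. With GDF9 against the control 0 of the 10 were past the threshold, 0 had an unadjusted p under 0.05, and the smallest unadjusted p was 0.101, for Kcnab1 (limma).

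On chromosome 13 the RefSeq order was Akr1c14, Akr1c18, Akr1c13, Akr1c19, Akr1c12, Akr1c6, Akr1c20, Akr1c21 and Akr1e1. The differences between FSH/EGF and control did not follow a run along the block. The -4.90 of Akr1c14 stood beside 0.37 for Akr1c18 and -1.29 for Akr1c13. The 6 genes that followed lay between -0.42 and -0.01. Several genes of the block were dim in every group, which limits how far a fall could show. The share of rows with a lower mean was 8.82% for Akr1c19, 11.9% for Akr1c21 and 20.8% for Akr1c12. It was 21.5% for Akr1c6, 24.6% for Akr1c20, 26.2% for Akr1c18 and 39.6% for Akr1c13, but 92.8% for Akr1c14. Ucn3, which flanks Akr1c14 on the other side, was at -0.16 ± 0.10 (limma adjusted p = 0.255). On chromosome 6 both genes that flank the Akr1b block rose. Slc35b4, a carrier of nucleotide sugars, stood at 7.68, 7.50, 7.71 and 7.42 with FSH/EGF and at 6.24, 6.74, 6.27 and 6.53 in control medium, and rose by 1.13 ± 0.12 (limma adjusted p = 1.49e-05). Bpgm, a mutase that makes 2,3-bisphosphoglycerate, rose by 0.69 ± 0.14 (limma adjusted p = 0.00205). Next to Akr7a5 on chromosome 4, Slc66a1, a lysosomal transporter of basic amino acids, rose by 0.32 ± 0.10 (limma adjusted p = 0.0336), and Mrto4, on the other side, had 2 probe sets whose locus was not checked, so that its value is not used here.

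**Figure D3:**
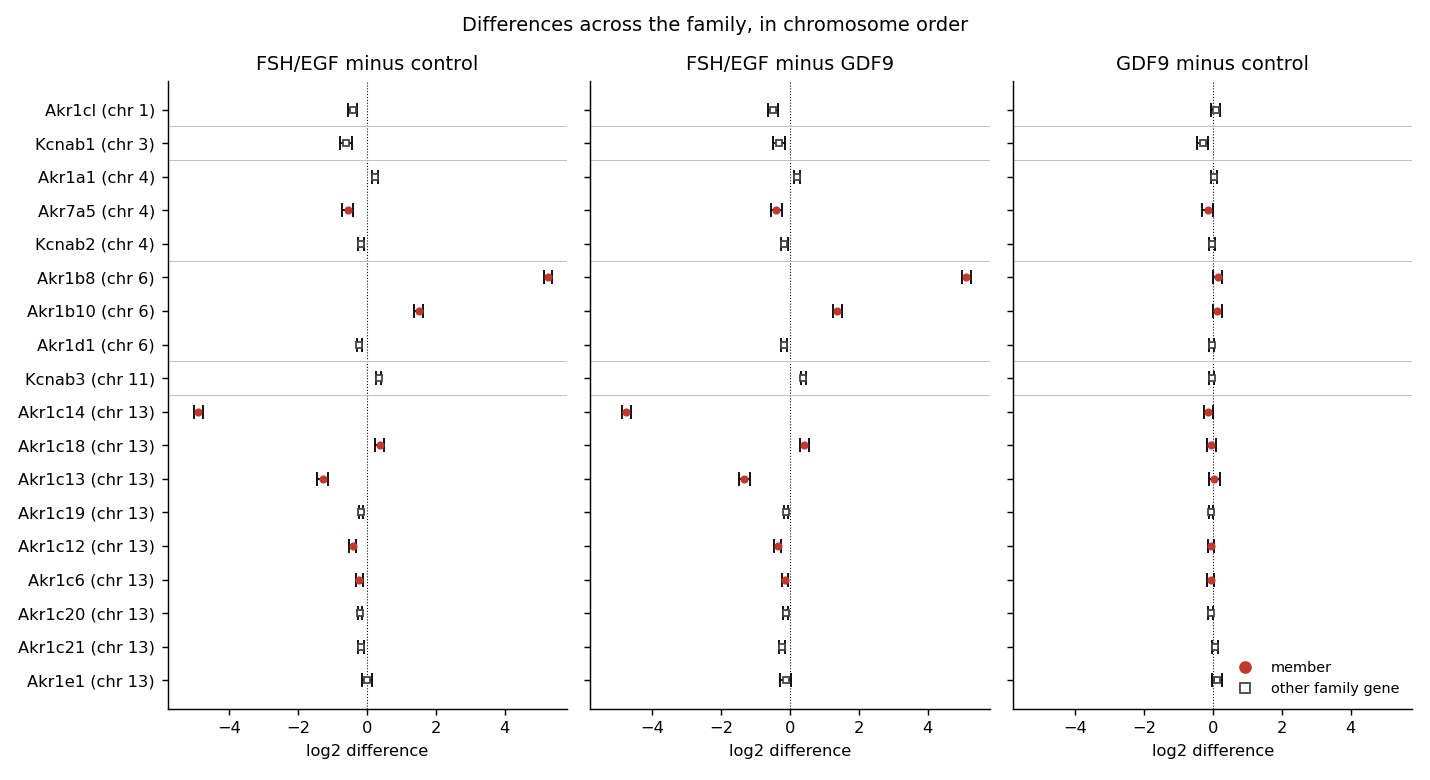
Log2 differences (horizontal axis, with SE bars) of 18 aldo-keto reductase genes, listed from top to bottom by chromosome and order along it, for the 3 comparisons; filled circles are the 8 measured members and open squares the 10 other family genes. Akr1b8 and Akr1b10 lie to the right and Akr1c14 and Akr1c13 to the left in both comparisons with FSH/EGF, and the other genes lie within 0.61 of 0 there.

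Genes that work beside these enzymes were counted from lists of related pathways, in FSH/EGF against the control. Over all genes 36.8% were called, 21.9% higher and 14.9% lower, and no test compared the lists with each other or with all genes. Of 20 measured genes of steroid synthesis and conversion, 7 rose and 6 fell (65.0% called), with a median of -0.12. Star, which brings cholesterol into mitochondria, stood at 6.79, 7.29, 7.03 and 6.91 with FSH/EGF and at 4.95, 4.97, 5.08 and 4.94 in control medium, a rise of 2.02 ± 0.10 (limma adjusted p = 1.12e-08). The estrogen sulfotransferase Sult1e1 rose by 6.87 ± 0.15 and the electron donor Fdx1 by 2.20 ± 0.19. Hsd17b1, which makes estradiol from estrone, fell by 1.94 ± 0.13 and Hsd11b2, which inactivates glucocorticoids, by 1.44 ± 0.14.

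Some aldo-keto reductases make prostaglandin F, and of 19 genes of prostaglandin synthesis, breakdown and response 7 rose and 5 fell (63.2% called, median 0.11). Ptgs2, the inducible cyclooxygenase, rose by 4.83 ± 0.34, the phospholipase Pla2g4a by 1.20 ± 0.09 and the prostaglandin reductase Ptgr1 by 0.82 ± 0.11. Hpgd, which starts prostaglandin breakdown, stood at 6.70, 6.03, 6.36 and 5.68 with FSH/EGF and at 9.77, 10.37, 10.05 and 10.32 in control medium. It fell by 3.93 ± 0.20 (limma adjusted p = 1.84e-08), and the prostacyclin synthase gene Ptgis fell by 2.96 ± 0.10.

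Akr1b3 had no probe set under its symbol among the rows with a single symbol. The list of polyol pathway, osmolyte and methylglyoxal genes had 5 risers and 3 fallers of 11 (72.7% called, median -0.04). The risers were 3 transporters, a transcription factor and a glyoxalase. The fallers were the sugar-metabolism genes Dcxr (-0.38 ± 0.10), Khk (-0.34 ± 0.10) and Tkfc (-0.25 ± 0.08), named here after their values were seen. The glucose transporter gene Slc2a1 rose by 3.13 ± 0.20, and the osmolyte transporters Slc5a3 (myo-inositol) and Slc6a6 (taurine) by 1.81 ± 0.22 and 1.5 ± 0.15. Nfat5, the transcription factor of the osmotic response, rose by 0.61 ± 0.11 and Hagh, the glyoxalase that completes methylglyoxal removal, by 0.97 ± 0.16.

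In the list of carbonyl and aldehyde detoxification 6 of 22 rose and 6 fell (54.5% called, median -0.15), and in retinoid metabolism 5 of 15 rose and 4 fell (60.0% called, median -0.05). Aldh1a3, a retinaldehyde dehydrogenase in both lists, stood at 10.03, 10.05, 10.03 and 10.25 with FSH/EGF and at 5.72, 5.93, 5.76 and 5.86 in control medium. It rose by 4.27 ± 0.09 (limma adjusted p = 1.47e-11), while its relative Aldh1a1 fell by 0.98 ± 0.20 (limma adjusted p = 0.00267). Rdh10, which makes retinaldehyde from retinol, rose by 2.18 ± 0.18, the retinaldehyde reductase Dhrs3 by 0.93 ± 0.11, and Crabp2, which carries retinoic acid, fell by 1.72 ± 0.18. Gsta4, a glutathione transferase for lipid aldehydes, rose by 2.96 ± 0.16, Aldh9a1 by 1.04 ± 0.09 and Aldh7a1 by 0.85 ± 0.11.

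Targets of NRF2, the transcription factor of the antioxidant response, and genes of NADPH supply had 12 risers and 5 fallers of 22 (77.3% called, median 0.54). The cystine transporter gene Slc7a11 was at 7.53, 7.25, 7.64 and 7.50 with FSH/EGF and at 4.37, 4.48, 4.31 and 4.80 in control medium, and rose by 2.99 ± 0.12 (limma adjusted p = 1.9e-09). Ugdh, which makes UDP-glucuronate, rose by 2.76 ± 0.14, Srxn1, which repairs peroxiredoxins, by 2.11 ± 0.09, and the ferritin gene Fth1 by 1.42 ± 0.12. Among the 5 fallers was Gclm (-1.33 ± 0.14), while Nqo1 (0.25 ± 0.11) and Txnrd1 (-0.02 ± 0.1) were not past the threshold. Gclm, Nqo1 and Txnrd1 are named here after their values were seen. Among 17 measured genes known to regulate aldo-keto reductase genes or their response to hormones, 6 rose and 3 fell (52.9% called, median -0.01). Nr5a2, which encodes LRH-1, fell by 2.09 ± 0.10 (limma adjusted p = 1.34e-08), with 6.98 to 7.07 on FSH/EGF arrays and 8.82 to 9.31 on control arrays. The C/EBP genes Cebpa and Cebpb rose by 2.56 ± 0.12 and 1.32 ± 0.24, and Crem, a cAMP-responsive factor, by 1.34 ± 0.12. Fos fell by 1.12 ± 0.34 with overlapping arrays (limma adjusted p = 0.0281). With FSH/EGF against GDF9, 13 of the 22 NRF2 and NADPH genes rose and 5 fell, as did 6 and 4 of the 20 steroid genes and 7 and 5 of the 19 prostaglandin genes, where 18.6% of all genes rose and 10.5% fell, 29.1% in all. With GDF9 against the control 0 of the 129 genes of all these lists passed limma's threshold. An unadjusted p under 0.05 was seen for 10 of the 129, and for 4.49% of all 35399 rows.

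**Figure D4:**
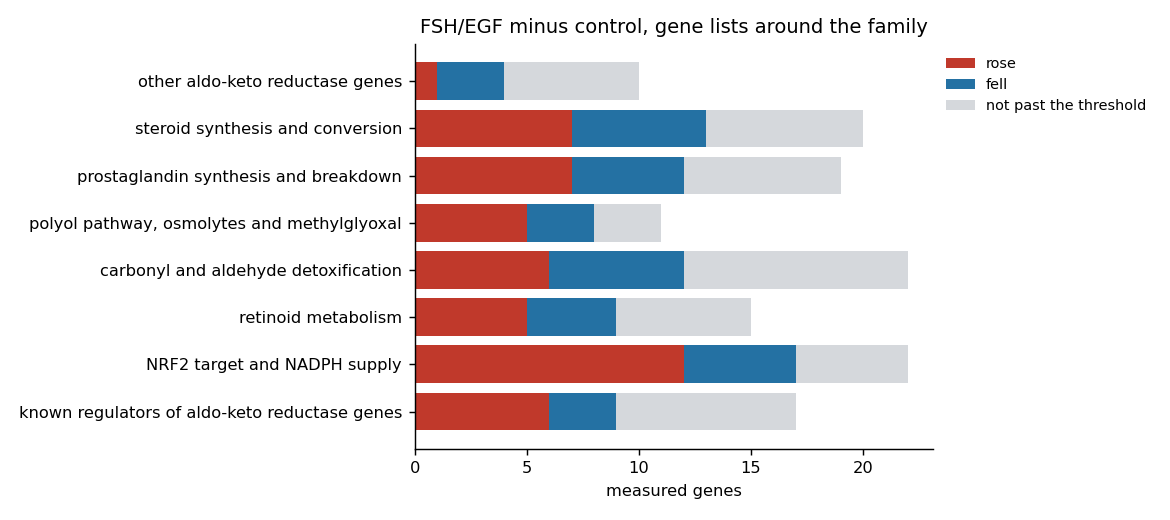
Number of measured genes (horizontal axis) in each of 8 lists that rose, fell or did not pass the limma threshold with FSH/EGF against the control, stacked in that order. The steroid list holds 7 risers and 6 fallers, and the list of NRF2 targets and NADPH supply holds 12 risers of 22.

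The genes whose values ran most like those of each member over the 12 arrays were found by Pearson correlation, as a description. The search covered genes with a single symbol. Predicted genes, named Gm plus digits or ending in Rik, were left out. The arrays of a group share their treatment, so that r also holds the differences between groups. Akr1b8 ran with Timp1 (r = 0.999), Fgf2 and Hmgcll1 (both 0.998), and Akr1b10 with Denr (0.995), Bzw1 and Nans (both 0.992). Akr1c14 ran with Ank3 and Grb14 (both 0.999) and Abca4 (0.998), and Akr1c13 with Ly75 (0.991), Arxes2 (0.99) and Slc6a15 (0.985). For Akr1c12 the genes were Mir194-2 (0.966), Unc13c (0.946) and Asah2 (0.941), and for Akr7a5 Tex29 (0.958), Adcy10 (0.954) and Tnxb (0.945). For Akr1c18 they were Morrbid (0.954), Cthrc1 (0.937) and Ptprb (0.926), and for Akr1c6 Omp (0.938), Chga (0.917) and Ushbp1 (0.914).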

How the data were processed

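RNA of cumulus cells was measured on 12 arrays, 4 per culture group. The authors deposited log2 expression values, from 2.92 to 14.29, already normalized; the submitters' processing notes list GCOS, Partek and RMA without role or version, and the genome build of the array annotation is not given in the sources used here. Of 35399 rows, 21789 had 1 gene symbol in the platform annotation, 1621 several and 11989 were not listed and stay unnamed. Groups were compared with limma 3.58.1 in R 4.3.3 (1 mean per group over 12 arrays, moderated variances), with Benjamini-Hochberg adjustment over all rows and a threshold of 0.05. The code was run on simulated rows with independent noise and known shifts. That run checks the code and not the calls made here. Arrays give no depth, and their number limits the precision. The members and gene lists were chosen with earlier results of these data known. The lists held 8 pathway and 6 marker sets. Genes named from a list are at most 5 with the largest called differences between FSH/EGF and control. The rule also names all family genes, chromosome neighbours and the 3 genes most like each member. Exceptions are the genes said in the text to be named after their values were seen. Promoter windows came from RefSeq (GRCm38.p6), where 9 of the 10 members had an entry, and were aligned with Biopython 1.88. Alternatives were leaving out the dimmest 40% of rows, setting array medians equal, quantile normalization once more, a variance trend or robust moderation, only the groups compared, array weights, a replicate block and each array left out.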

Additional observations from a re-analysis of the deposited data

Results flagged for a closer look

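Of 54 groups of 4 arrays tested, 18 family genes in 3 groups each, 1 held an array far from the others by Dixon's criterion, and chance flags about 1 group in 20. Akr1e1 was at 4.95 on FSH/EGF array 4, with the other FSH/EGF arrays at 5.39 to 5.41, a gap of 0.949 of the group's range.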

How the results depend on the processing

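No alternative turned the sign of any of the 8 members in FSH/EGF against control or FSH/EGF against GDF9 (0 of 17 alternatives each), while in GDF9 against control, where differences were within 0.15 of 0, 0 to 4 of 17 did. Leaving out an array of the group not compared, or adding the replicate block, could not change a difference of group means. Such alternatives could therefore not turn a sign. The mean in place of the median over the 5 Akr1c genes gave -1.29 against the control and -1.23 against GDF9, since Akr1c14 weighs on a mean. Of the 10 other family genes 4 passed against the control, 2 after renewed quantile normalization, 2 without control arrays 1 and 4 (chosen after seeing the data), 6 with a variance trend, 6 with array weights (Akr1c19 and Akr1d1 gained in both), and 2 to 5 with 1 array left out. Against GDF9 3 passed, and 1 to 3 with 1 array left out. The cause was not tested. Against GDF9 the Akr1c21 call was lost in 13 settings and that of Akr1cl in 5. With GDF9 against control 0 rows passed, and 0 to 1 with 1 array left out, the 1 being without GDF9 replicate 3. With array medians set equal, 71.9% of called rows were higher with FSH/EGF than in control medium, against 57.0% as deposited and 52.4% after quantile normalization. Replicate numbers did not pair the arrays, since same-numbered deviations correlated at -0.389 to 0.221. With the replicate number as a block, 9600 rows passed against the control in place of 10269, 7547 in place of 7979 against GDF9, and 3 and 2 of the other family genes, with Akr1c20 (adjusted p = 0.0578) and, against GDF9, Akr1c21 (0.0743) no longer called. The number of arrays, 4 per group of pooled RNA, limits what small differences of dim genes can show.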
